A study of Mus musculus with 18 samples.

Results

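Cd22, Lilrb4 and Gp49a are 3 receptor genes of the immunoglobulin superfamily, 3 of the 26665 genes listed in the expression files. They were chosen from these same data as receptors known from B cells and myeloid cells whose FPKM (mapped fragments scaled to transcript length and to the size of the library, a level per length) was lower in T cells without CD28. Their CD28 differences are therefore given as a description, with no test. The study sequenced RNA from spleen T cells of C57BL/6 mice, in 18 libraries of 3 per group. Wild type cells came from Foxp3EGFP mice, which carry a green fluorescent reporter of Foxp3, the lineage factor of regulatory T cells (Treg), and the deficient cells from CD28-/-Foxp3EGFP mice, so that both genotypes share the reporter. Each genotype gave 3 sorted populations: Nrp1+ Treg, which the titles call tTreg, Nrp1-negative Treg, called pTreg, and conventional T cells (Tconv). No further agent is named in the labels, the deficiency is not limited to one cell type, and nothing says that the 3 libraries of a group came from separate animals, so p-values measure only the spread between these libraries.

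CD28 is the classical costimulatory receptor of T cells. Cd22 encodes a Siglec, a lectin that binds sialic acids on glycoproteins, and is best known as an inhibitory co-receptor of the B cell antigen receptor. Its cytoplasmic tail holds tyrosine motifs (ITIMs) that, once phosphorylated by Lyn, recruit the phosphatase SHP-1. Lilrb4 encodes gp49B, an inhibitory receptor with the same kind of motif, known from mast cells, myeloid cells and activated lymphocytes. Gp49a encodes its close relative gp49A, which lacks those motifs.

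By GENCODE release M21 on GRCm38, Cd22 (ENSMUSG00000030577.14) lies on the minus strand at chr7:30865402-30880342 with 13 coding exons. Lilrb4, named Lilrb4a there (ENSMUSG00000112148.1), lies on the plus strand at chr10:51490956-51496611 with 9 coding exons. Gp49a, named Lilr4b there (ENSMUSG00000112023.1), lies on the same strand at chr10:51480632-51486703 with 8 coding exons, and 4252 bases separate it from Lilrb4. A read-through gene model, Gm49339, spans both. An antisense model lies within Cd22 and another spans Lilrb4. None of the 3 models has a row in the files, and the strand setting of the counting was not given in the sources used here, so reads from them cannot be told apart from reads of the receptors.

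The coding sequences of Lilrb4 and Gp49a match so closely that single reads of 50 bases can fail to separate them, which bears on each value of the pair. From the start codon, 881 coding bases align without a gap, and 846 of them (96.0%) are identical. The longest identical run covers coding bases 302 to 427 of both genes, is 126 bases long, and is shown because no read inside it can be assigned to either gene. Its ends lie at chr10:51491665-51491932 in Lilrb4 and chr10:51481371-51481638 in Gp49a, with an intron inside each span.
Lilrb4 and Gp49a, shared run: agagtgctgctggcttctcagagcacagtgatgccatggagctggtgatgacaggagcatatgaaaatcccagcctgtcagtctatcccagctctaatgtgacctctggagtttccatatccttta
The coding stretch of 100 bases that differs most, coding bases 169 to 268, is shown because reads there can separate the genes. It lies at chr10:51491532-51491631 in Lilrb4 and chr10:51481238-51481337 in Gp49a, and capitals mark the 11 positions at which the genes differ.
Lilrb4, coding bases 169 to 268: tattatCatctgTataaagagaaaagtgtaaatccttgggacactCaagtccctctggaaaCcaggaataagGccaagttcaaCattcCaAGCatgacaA
Gp49a, coding bases 169 to 268: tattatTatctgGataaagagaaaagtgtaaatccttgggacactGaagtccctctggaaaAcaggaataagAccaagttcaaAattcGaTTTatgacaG
The coding ends are shown because the genes part there in length, with 335 codons in Lilrb4 and 303 in Gp49a. Both runs start at coding base 822 and end with the stop codon, at chr10:51494803-51496244 and chr10:51484527-51485760. Capitals mark the bases from the first gap of the alignment on, which falls in a run of C, 127 in Lilrb4 and 31 in Gp49a. Here capitals do not mark single differing bases, and many of them match between the genes.
Lilrb4, coding end: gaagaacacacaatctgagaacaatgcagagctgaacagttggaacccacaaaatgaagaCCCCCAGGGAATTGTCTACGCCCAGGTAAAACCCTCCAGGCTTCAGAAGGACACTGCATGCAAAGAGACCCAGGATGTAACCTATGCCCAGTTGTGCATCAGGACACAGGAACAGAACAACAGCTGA
Gp49a, coding end: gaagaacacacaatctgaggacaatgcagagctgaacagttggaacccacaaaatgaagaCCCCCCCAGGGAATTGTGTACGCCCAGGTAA
Over whole transcripts, 27.8% of the 50-base windows of Lilrb4 (370 of 1332) occur exactly in Gp49a, and 69.9% occur there with up to 2 mismatches. For Gp49a, 22.9% of 1787 windows occur exactly in Lilrb4 and 52.1% with up to 2 mismatches. The division of reads between these genes is therefore uncertain. Cd22 has no such relative, and 0.611% of its 3925 windows occur in other genes.

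The libraries held 10703 to 11741 genes at 1 FPKM or more, and libraries of one group correlated at Pearson r of 0.918 to 0.965 across the 12265 tested genes, which are not independent replicates. The FPKM files do not give the read depth, so the precision of low values cannot be stated as a counting interval. Foxp3 was 56.0 to 137.0 FPKM in the 12 Treg libraries and 0.067 to 0.285 FPKM in 5 of the 6 Tconv libraries. The sixth, CD28-/- Tconv replicate 3, had 21.1 FPKM of Foxp3, 12.8 of Nrp1 and 20.5 of Ikzf2, and the effect of leaving it out is given beside the results it moves. Cd28 itself was not lower in the CD28-/- libraries (71.2 to 80.6 FPKM in Nrp1+ Treg, against 57.5 to 62.9 in wild type), so this whole-gene value does not check the genotype labels behind each direction below.

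Cd22 was at 1 FPKM or more in all 9 wild type libraries and in none of the 9 CD28-/- libraries, so it passed the filter on low values (1 FPKM in at least 3 libraries) only through the wild type. In wild type Tconv it was 3.4, 3.12 and 2.6 FPKM in replicates 1, 2 and 3, and in CD28-/- Tconv 0.276, 0.25 and 0.372 FPKM. These groups did not overlap, and their means, 3.04 ± 0.409 and 0.3 ± 0.0642 (SD, n = 3), stood 10.1-fold apart. In Nrp1+ Treg, Cd22 was 2.41, 1.99 and 2.3 FPKM in wild type and 0.694, 0.491 and 0.532 FPKM without CD28. The means differed 3.9-fold, again without overlap. In Nrp1-negative Treg the values were 1.09, 1.1 and 1.14 FPKM in wild type and 0.352, 0.188 and 0.147 FPKM without CD28, a 4.84-fold difference of means with all wild type libraries above all deficient ones. On the log2(FPKM + 1) scale, which understates the change of low genes, the CD28-/- minus wild type difference of Cd22 was -1.63 ± 0.12 (SE) in Tconv, -0.78 ± 0.12 in Nrp1-negative Treg and -1.04 ± 0.12 in the Nrp1+ subset. In bulk RNA, fewer cells that express a gene and less RNA per cell cannot be told apart.

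Lilrb4, the inhibitory member of the gp49 pair, was highest in wild type Treg. It was 9.2, 11.8 and 12.8 FPKM in wild type Nrp1-negative Treg and 3.5, 2.88 and 4.04 FPKM in the same cells without CD28. The groups did not overlap and their means differed 3.25-fold. Nrp1+ Treg gave 8.06, 8.96 and 11.8 FPKM in wild type and 3.03, 2.03 and 2.52 FPKM without CD28, a 3.8-fold difference of means, also without overlap. Tconv had little Lilrb4, with 1.1, 0.996 and 0.906 FPKM in wild type and 0.0276, 0.059 and 1.16 FPKM without CD28. Here the groups overlapped, because the library that also held Foxp3, CD28-/- replicate 3, exceeded every wild type one. The log2 differences were -1.45 ± 0.24 (SE) in Nrp1-negative Treg, -1.58 ± 0.24 in Nrp1+ Treg and -0.59 ± 0.24 in Tconv, and the last was -0.94 without CD28-/- Tconv replicate 3. The part of Treg transcripts in that library's Lilrb4 value was not tested.

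Gp49a, the member without inhibitory motifs, followed the same order of groups. It was 6.32, 6.82 and 6.19 FPKM in wild type Nrp1-negative Treg and 2.6, 1.49 and 2.81 FPKM without CD28, 2.8-fold apart by their means and not overlapping. In Nrp1+ Treg it was 5.71, 4.26 and 5.3 FPKM in wild type and 1.35, 0.914 and 0.626 FPKM without CD28, 5.28-fold apart and not overlapping. In Tconv it was under 1 FPKM in all libraries, with 0.912, 0.78 and 0.396 FPKM in wild type and 0.0333, 0.119 and 0.0806 FPKM without CD28. All wild type values lay above all deficient ones. Unlike Lilrb4, Gp49a was not high in CD28-/- Tconv replicate 3. The log2 differences were -1.2 ± 0.18 (SE) in the Nrp1-negative subset, -1.64 ± 0.18 in the Nrp1+ subset and -0.64 ± 0.18 in Tconv.

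**Figure D1:**
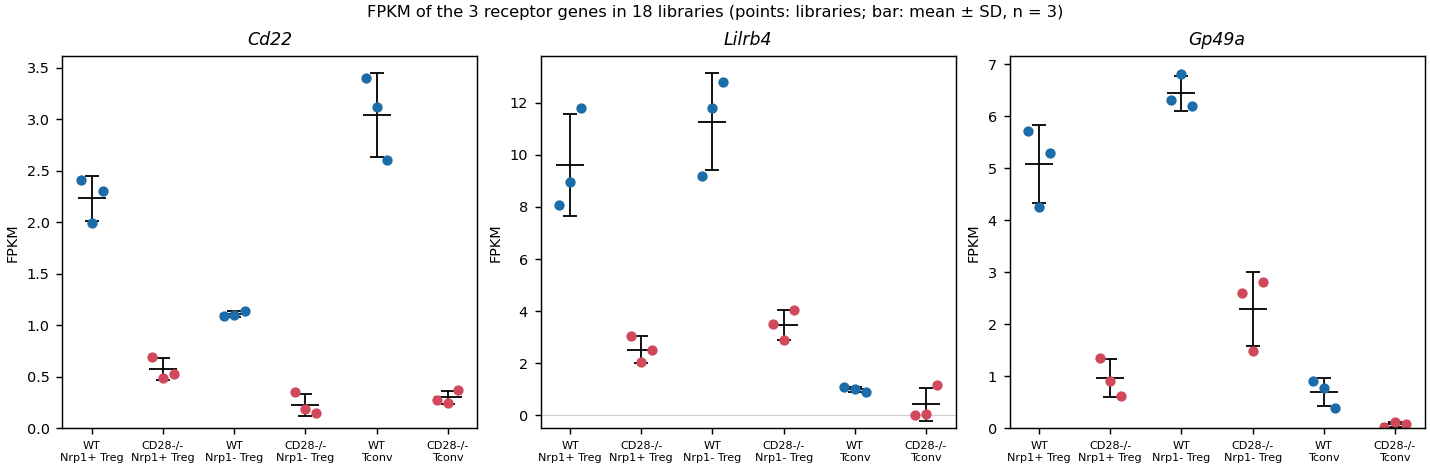
FPKM of Cd22, Lilrb4 and Gp49a (y axis) in each group (x axis), with 1 point per library, blue for wild type and red for CD28-/-, and bars for the mean ± SD of 3 libraries. Wild type points lie above CD28-/- points in every population except for Lilrb4 in Tconv, where CD28-/- replicate 3 is at 1.16 FPKM.

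In all, 8 of the 9 CD28 differences of the 3 genes were without overlap, in the direction that the choice of genes set. All deficient libraries lay below all wild type ones for 15.1% of tested genes in Nrp1+ Treg, 1.86% in the Nrp1-negative subset and 18.2% in Tconv. Across all 12265 tested genes, limma called 0.171% lower in CD28-/- Nrp1+ Treg at a Benjamini-Hochberg adjusted p under 0.05, 0.179% in the Nrp1-negative subset and 0.791% in Tconv. In either direction the shares were 0.204%, 0.204% and 0.791%, and 3.82%, 4.44% and 9.66% of tested genes had an unadjusted p under 0.05. The median difference of all tested genes was -0.05, 0.19 and -0.16 on the log2 scale in the same populations. Since the genes were picked on these contrasts, nothing is read from their place against that background.

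The differences between populations within a genotype were not part of the choice and were tested with limma over all genes. Among wild type cells, Cd22 was higher in Nrp1+ than in Nrp1-negative Treg, by 2.01-fold in mean FPKM and by 0.61 ± 0.12 (SE) on the log2 scale (adjusted p = 0.00464, 3 of 3 libraries above all others). Neither Lilrb4 (-0.22 ± 0.24, adjusted p = 0.711) nor Gp49a (-0.3 ± 0.18, adjusted p = 0.521) passed. One of the 3 genes was thus called higher, where 4.44% of all tested genes were. The median of all genes stood at 0.19 in this comparison, so Cd22 exceeded it by 0.42. Quantile normalization, which moves that median to -0.02, left Cd22 at 0.36 (adjusted p = 0.216). The call was also lost with a pseudocount of 0.1 (adjusted p = 0.0738) and when the model held the 2 compared groups alone (adjusted p = 0.194).

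Against wild type Tconv, the gp49 pair and Cd22 stood on opposite sides. Mean Lilrb4 was 9.6-fold higher in Nrp1+ Treg (2.39 ± 0.24 log2, adjusted p = 5.66e-06) and 11.3-fold higher in Nrp1-negative Treg (2.61 ± 0.24 log2, adjusted p = 1.08e-05). Gp49a was 7.31-fold higher in Nrp1+ Treg (1.85 ± 0.18, adjusted p = 4.7e-06) and 9.25-fold higher in Nrp1-negative Treg (2.15 ± 0.18, adjusted p = 5.3e-06). In each case all 3 Treg libraries exceeded all 3 Tconv libraries. Gp49a reached 1 FPKM in no Tconv library and Lilrb4 in 2 of 6, fewer than the 3 libraries that the filter asks. Both genes therefore entered the tests only through the Treg groups, where they are high. Their calls against Tconv in either genotype are not independent of that filter. Cd22 was 2.74-fold lower in Nrp1-negative Treg than in Tconv (-0.93 ± 0.12, adjusted p = 0.00016, 3 of 3 libraries below). In a model of these 2 groups alone its adjusted p was 0.0767. In Nrp1+ Treg its difference of -0.32 ± 0.12 did not pass (adjusted p = 0.107), although the libraries did not overlap, and it passed with no filter on low values (adjusted p = 0.0462) and with quantile normalization (-0.5, adjusted p = 0.0346). Called higher were 2 of the 3 genes in Nrp1+ Treg, against 8.33% of all tested genes, and 2 of the 3 in Nrp1-negative Treg, against 2.05%. These 2 are the gp49 pair, which shares sequence and passed the filter through Treg, so nothing is read from the counts. Called lower were none of the 3 in Nrp1+ Treg, against 4.26% of all genes, and 1 of the 3 in Nrp1-negative Treg, against 2.44%.

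Without CD28, the gp49 pair was again higher in Treg than in Tconv. Lilrb4 was higher by 1.4 ± 0.24 (SE, log2) in Nrp1+ Treg (adjusted p = 0.00062) and by 1.74 ± 0.24 in Nrp1-negative Treg (adjusted p = 0.00031), each in 3 of 3 libraries. The folds of mean FPKM were 6.07 and 8.35. They rest on a Tconv mean of 0.416 FPKM over values from 0.0276 to 1.16, set mainly by replicate 3, so they are rough. Leaving out CD28-/- Tconv replicate 3 raised the log2 differences to 1.75 and 2.09. Gp49a was higher by 0.85 ± 0.18 in Nrp1+ Treg (adjusted p = 0.00382) and by 1.59 ± 0.18 in Nrp1-negative Treg (adjusted p = 6.05e-05), against Tconv values too near 0 for a useful fold. Without CD28-/- Tconv replicate 3 these stayed at 0.85 (adjusted p = 0.0134) and 1.59 (0.000181). In Nrp1+ Treg it was 0.53 (adjusted p = 0.15) after quantile normalization. In both comparisons 2 of the 3 genes were called higher, where 9.63% and 4.8% of all tested genes were. These were again the gp49 pair, with the same limits of filter and shared sequence.

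None of the differences of Cd22 between deficient populations passed the test in the reported fit. They were 0.36 ± 0.12 (SE, log2) between Nrp1+ and Nrp1-negative Treg (adjusted p = 0.142), 0.27 ± 0.12 between Nrp1+ Treg and Tconv (adjusted p = 0.202) and -0.08 ± 0.12 between Nrp1-negative Treg and Tconv (adjusted p = 0.86). The difference between Nrp1+ Treg and Tconv turned to -0.13 (adjusted p = 0.664) under quantile normalization. By mean FPKM, Cd22 was 2.5-fold higher in Nrp1+ than in Nrp1-negative Treg and 1.91-fold higher than in Tconv, both without overlap. These Cd22 values were all under 1 FPKM, where the log2 scale understates the change. Between the Treg subsets the call was gained in some alternatives given below, such as a pseudocount of 0.1. Gp49a was lower in CD28-/- Nrp1+ Treg than in Nrp1-negative Treg (-0.74 ± 0.18, adjusted p = 0.029, 3 of 3 libraries below), a 2.38-fold difference of means. Lilrb4 was at -0.34 ± 0.24 there (adjusted p = 0.65). This made 1 of the 3 genes lower, where 0.946% of all tested genes were called lower. The Gp49a call was lost without Nrp1+ Treg replicate 2 (adjusted p = 0.111) or 3 (0.161), and without Nrp1-negative Treg replicate 1 (0.144) or 3 (0.151).

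**Figure D2:**
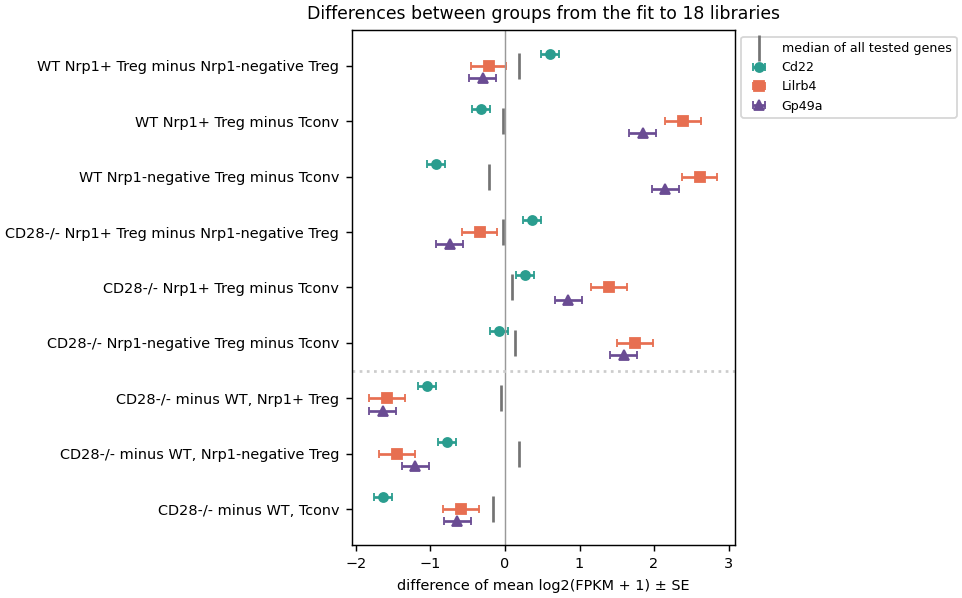
Differences of mean log2(FPKM + 1) with their SE (x axis) for 9 comparisons (y axis), with 1 marker per gene and a grey tick at the median of all 12265 tested genes. Lilrb4 and Gp49a lie to the right of Cd22 in each Treg minus Tconv comparison, and the 3 comparisons under the dotted line are those that chose the genes.

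By mean FPKM, Cd22 fell in the order wild type Tconv (3.04), wild type Nrp1+ Treg (2.23), wild type Nrp1-negative Treg (1.11), CD28-/- Nrp1+ Treg (0.572), CD28-/- Tconv (0.3) and CD28-/- Nrp1-negative Treg (0.229). Of the 4 neighbouring pairs within a genotype, the wild type Treg subsets alone passed the test. The order of Lilrb4 was wild type Nrp1-negative Treg (11.3), wild type Nrp1+ Treg (9.6), CD28-/- Nrp1-negative Treg (3.48), CD28-/- Nrp1+ Treg (2.53), wild type Tconv (1.0) and CD28-/- Tconv (0.416). Gp49a had the same order, at 6.44, 5.09, 2.3, 0.965, 0.696 and 0.0778 FPKM. The Treg subsets of either genotype were neighbours in both orders, and of these 4 pairs only Gp49a in CD28-/- cells passed the test. Even at its highest, Cd22 was a low transcript, with 20.9% of tested genes below its mean in wild type Tconv, whereas 53.2% lay below Lilrb4 in wild type Nrp1-negative Treg.

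Within the gp49 pair, Lilrb4 exceeded Gp49a in every Treg library, by a ratio of FPKM from 1.35 to 4.02 with a median of 2.0 over 12 libraries. In Tconv the ratio was 1.2, 1.28 and 2.29 in wild type. Without CD28 it was 0.827, 0.494 and 14.4, the last in the replicate 3 that held Foxp3. Across the 18 libraries the log2 values of the pair correlated at Pearson r = 0.96. As the pair shares sequence and the libraries fall into groups, this is a description only. Adding both genes into 1 value gave a CD28 difference of -0.93 in Tconv.

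**Figure D3:**
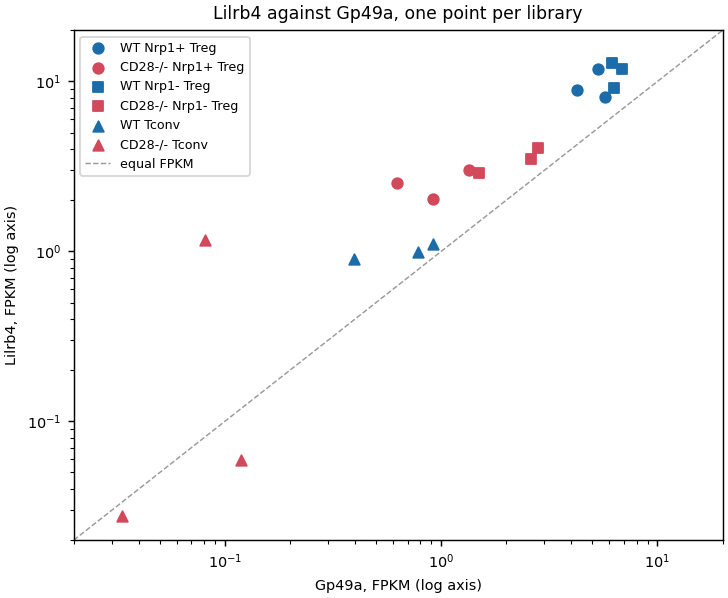
FPKM of Lilrb4 (y axis) against Gp49a (x axis), both on log axes, with 1 point per library, shapes for populations and colours for genotypes. All 12 Treg libraries lie above the dashed line of equal FPKM, and CD28-/- Tconv replicate 3 lies farthest above it at a ratio of 14.4.

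The markers of B cells were unevenly represented in the same libraries. Cd74 reached 49.7 FPKM, Cd72 15.7, Cd79b 9.9 and Fcrl1 6.38. In contrast, Ms4a1, Pax5, Ebf1, Cr2 and Blnk, genes of B cell surface receptors, signalling and lineage control picked from the B cell list with values known, reached at most 0.224 FPKM in any library, and 32 of their 90 values were 0. Of the 18 B cell markers listed, 11 were under 1 FPKM in all 18 libraries. Among these, Vpreb3 reached 0.917, Bank1 0.698 and Fcer2a 0.485 FPKM, above the picked genes. Mean Bank1 was 0.614 FPKM in wild type and 0.346 in CD28-/- Nrp1+ Treg, and 0.516 and 0.191 in Nrp1-negative Treg. In Tconv it was 0.342 and 0.143 FPKM. Mean Fcer2a was higher without CD28 in each population, and mean Vpreb3 was lower in Nrp1+ Treg alone. Cd79a, which encodes a chain of the B cell antigen receptor, ran from 0.571 to 2.27 FPKM. Its group means were 0.89 FPKM in wild type and 1.05 in CD28-/- Tconv, where Cd22 differed most. The summed B cell list was 17.8 to 31.0 FPKM in wild type Tconv and 15.8 to 27.6 in CD28-/- Tconv. It was 69.8 to 87.3 against 55.1 to 62.1 FPKM in Nrp1+ Treg and 32.2 to 43.8 against 21.9 to 28.7 in Nrp1-negative Treg, so in both Treg subsets the sum was lower without CD28. In both genotypes the sum was higher in Nrp1+ Treg than in Tconv. Mean Cd22 was 2.23 and 3.04 FPKM in these wild type populations, a difference that did not pass, and 0.572 and 0.3 FPKM without CD28. Limma called 0 of the 7 tested B cell markers for CD28 in any population, and 2, 1 and 1 had an unadjusted p under 0.05 in Nrp1+ Treg, the Nrp1-negative subset and Tconv. The one in Tconv was Fcrl1 (-0.9 ± 0.22 log2, adjusted p = 0.0851), which was at -1.17 (adjusted p = 0.00669) and was called, alone of the 7, without CD28-/- Tconv replicate 3. That fit called 1.24% of all tested genes. Fcrl1 was thus lower without CD28 in Tconv, where Cd22 differed most, but was called there only without replicate 3. Its mean was 5.65 FPKM in wild type and 6.12 in CD28-/- Nrp1+ Treg, and 3.17 and 2.55 in Nrp1-negative Treg. With all libraries, limma called 0.204%, 0.204% and 0.791% of all tested genes for CD28 in Nrp1+ Treg, the Nrp1-negative subset and Tconv. An unadjusted p under 0.05 was found for 3.82%, 4.44% and 9.66%. At such shares, 0 calls in a short list show little. The part of the B cell markers in the Cd22 difference was not tested.

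Myeloid markers were likewise uneven. S100a8 and S100a9, calcium-binding proteins of neutrophils, ran from 2.42 to 34.1 and from 1.45 to 24.9 FPKM, and the lysosomal gene Cd68 from 4.99 to 14.9 FPKM. Csf1r, which encodes the macrophage growth factor receptor, reached at most 0.739 FPKM, and Fcer1a and Ms4a2, chains of the mast cell and basophil IgE receptor, were listed at 0 in all 18 libraries. The mast cell protease Cpa3 reached 0.301 FPKM. Lyz2, the lysozyme of macrophages and neutrophils, was present at 1.09 to 12.6 FPKM. Its mean was 7.26 ± 3.38 FPKM in wild type and 7.3 ± 3.39 in CD28-/- Nrp1+ Treg, and 6.41 ± 5.32 against 6.44 ± 5.38 in Nrp1-negative Treg (SD, n = 3). In Tconv Lyz2 was 3.04 to 5.18 FPKM in wild type and 1.09 to 2.62 without CD28, with no overlap, a difference of -0.91 ± 0.49 log2 that did not pass (adjusted p = 0.555). The summed list of 21 myeloid markers was 31.2 to 48.3 FPKM in wild type and 21.2 to 59.8 in CD28-/- Nrp1+ Treg, and 30.5 to 92.9 against 27.9 to 78.7 in Nrp1-negative Treg, with overlap in both. In Tconv it was 33.9 to 37.6 FPKM in wild type and 19.9 to 22.9 without CD28, with no overlap, and its part in the Tconv values of Lilrb4 and Gp49a was not tested. Limma called 0 of the 9 tested myeloid markers for CD28 in any population. An unadjusted p under 0.05 was found for 0, 0 and 1 of them in Nrp1+ Treg, the other subset and Tconv. Of all tested genes, 0.204%, 0.204% and 0.791% were called, and 3.82%, 4.44% and 9.66% were under that unadjusted p. The 0 calls in this list therefore show little. Plasma cell markers summed to at most 2.16 FPKM, mast cell and basophil markers to at most 0.991, and NK cell markers to at most 6.69. T cell genes were high throughout, with Cd3e at 306.0 to 610.0 FPKM.

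**Figure D4:**
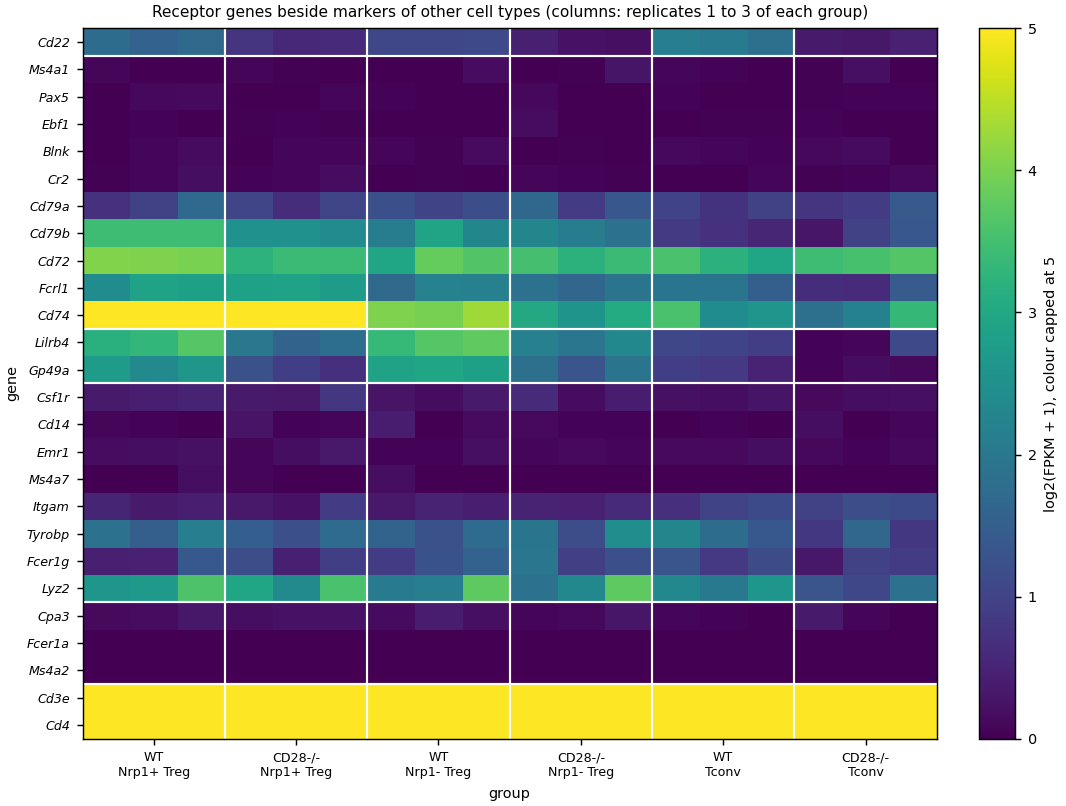
Colour gives log2(FPKM + 1), capped at 5, for the receptor genes and for markers of B, myeloid, mast and T cells (y axis) in the 18 libraries (x axis, 3 columns per group). Cd22 is lighter in the wild type than in the CD28-/- columns, but darker than Cd72 in all of them. Ms4a1 and Pax5 stay dark throughout, and Fcer1a and Ms4a2 are at 0 in every column.

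Other members of the receptor families were mostly not expressed. All 8 other Siglec genes in the files were under 1 FPKM in all 18 libraries. Of 28 other leukocyte immunoglobulin-like and paired receptors, 23 were under 1 FPKM throughout and 5 were tested (Lair1, Fcrl1, Cd300a, Pilra and Cd72), and limma called 0 of these 5 for CD28, with 1, 0 and 2 at an unadjusted p under 0.05 in Nrp1+ Treg, the other subset and Tconv. Their median CD28 difference was 0.07, -0.09 and -0.16 on the log2 scale in the same order, beside -0.05, 0.19 and -0.16 for all tested genes. Of all tested genes, limma called 0.204%, 0.204% and 0.791% for CD28, and 3.82%, 4.44% and 9.66% had an unadjusted p under 0.05. Fcrl1 was called in Tconv without CD28-/- replicate 3, as given above. Lair1, an inhibitory collagen receptor, reached 1 FPKM in the 6 Tconv libraries alone, at 2.04 to 3.23 FPKM in wild type and 1.22 to 2.24 without CD28.

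Among 8 tested receptors with inhibitory motifs that are known from T cells, 3 differences with CD28 passed. Of all tested genes, limma called 0.204% in each Treg subset and 0.791% in Tconv. In Nrp1-negative Treg, Tigit, a receptor for nectin-like ligands, was 27.3 to 36.2 FPKM in wild type and 2.63 to 4.0 without CD28 (-2.99 ± 0.42 log2, adjusted p = 0.00485). Klrg1, a cadherin-binding receptor, was 5.52 to 6.12 against 0.163 to 0.328 FPKM there (-2.46 ± 0.37, adjusted p = 0.00684). Pdcd1, which encodes PD-1, was 9.98 to 14.5 FPKM in wild type Tconv and 0.96 to 7.35 without CD28 (-1.93 ± 0.41, adjusted p = 0.0331), the highest deficient value being that of replicate 3. Without that library the difference was -2.58 (adjusted p = 0.000126), and Tigit was called lower in Tconv too. That fit called 1.24% of all tested genes. In Nrp1+ Treg 0 of the 8 passed by limma, and 3 had an unadjusted p under 0.05, as 3.82% of all tested genes did. These were the same 3 genes, with Tigit at -1.44 ± 0.42, Klrg1 at -1.73 ± 0.37 and Pdcd1 at -1.27 ± 0.41 log2. The median of the 8 was -0.19 in Nrp1+ Treg, -0.1 in the other subset and -0.34 in Tconv.

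Of 15 enzymes and adaptors on which inhibitory motifs act, 14 were tested and Syk was under 1 FPKM in all 18 libraries. Limma called 0 of the 14 for CD28 in any population. There were 1, 1 and 3 at an unadjusted p under 0.05 in Nrp1+ Treg, the other subset and Tconv. Of all tested genes, 0.204%, 0.204% and 0.791% were called, and 3.82%, 4.44% and 9.66% were under that unadjusted p. Inppl1, a lipid phosphatase gene, was called lower in Tconv without CD28-/- replicate 3, in a fit that called 1.24% of all tested genes. Ptpn6, which encodes SHP-1, was 60.8 to 162.0 FPKM, Ptpn11 (SHP-2) 9.39 to 30.2 FPKM and the lipid phosphatase gene Inpp5d (SHIP-1) 16.6 to 41.9 FPKM over the 18 libraries. Lyn, the kinase that phosphorylates CD22 in B cells, was low. It reached 1 FPKM in the wild type Nrp1+ Treg libraries alone, at 1.0, 1.36 and 2.04 FPKM, and was 0.209 to 0.616 FPKM in wild type Nrp1-negative Treg and 0.13 to 0.267 in wild type Tconv. As it passed the filter only through the group where it is high, no test is given.

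Genes that make or remove the sialic acid ligands of CD22 were likewise present. Limma called 0 of 8 for CD28 in any population, with 0 at an unadjusted p under 0.05. Of all tested genes, it called 0.204% in each Treg subset and 0.791% in Tconv. The shares under that unadjusted p were 3.82% in Nrp1+ Treg, 4.44% in the other subset and 9.66% in Tconv. St6gal1, the sialyltransferase that builds the preferred linkage of CD22, was 25.8 to 57.1 FPKM, and Cmah, which makes the glycolyl form of sialic acid, 10.9 to 57.2 FPKM. Neu3, a sialidase, was higher in wild type Nrp1+ Treg than in Tconv (1.48 ± 0.28 log2, adjusted p = 0.00111). Of the integrin and matrix genes listed as gp49B ligands, Itgav and Itgb3 were tested and limma called neither for CD28, with 1 unadjusted p under 0.05, in Nrp1-negative Treg. In wild type Nrp1+ Treg against Tconv they parted, with Itgav at 1.41 ± 0.4 (adjusted p = 0.0242) and Itgb3 at -1.44 ± 0.28 (adjusted p = 0.00163).

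The 4 tested genes whose log2 values followed Cd22 most closely over the 18 libraries were Ctsw (Pearson r = 0.93), Ccr10 (0.925), Rnf157 (0.908) and Rgs12 (0.907). Ctsw, a cysteine protease of cytotoxic lymphocytes, had a mean of 39.4 FPKM in wild type Tconv and 13.1 in CD28-/- Tconv. Ccr10, a chemokine receptor of skin and mucosal homing, had 1.08 and 0.131 FPKM there. Cd22 itself correlated with Lilrb4 at 0.229 and with Gp49a at 0.272. For Lilrb4 the 5 closest were Hpn (0.964), Gp49a (0.96), Glrx (0.955), Sccpdh (0.944) and Asb2 (0.935), and for Gp49a they were Lilrb4 (0.96), Glrx (0.954), Asb2 (0.947), Pvrl1 (0.946) and Sccpdh (0.938). Asb2, a substrate-recognition subunit of a ubiquitin ligase, had mean levels in Nrp1-negative Treg of 17.0 FPKM in wild type and 6.05 without CD28. Its mean in Tconv of wild type mice was 2.96 FPKM. Libraries of one group are not independent points and these genes were picked as the closest of 12265, so the coefficients are descriptions.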

How the data were processed

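The FPKM values were computed by the authors with Trimmomatic 1, TopHat2 2.0.11 and Cufflinks on GRCm38, per the submitters' processing notes, from NEBNext Ultra libraries of total RNA read as single 50-base reads, per the labels. The unit was inferred from Cufflinks and the values, since the headers do not name it. The annotation used was not given in the sources used here, and the old symbols Lilrb4 and Gp49a were matched to Lilrb4a and Lilr4b through RefSeq synonyms. Depth is unknown.

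Libraries were grouped by title, 3 in each of 6 groups. Of 26665 genes, the 12265 at 1 FPKM or more in at least 3 libraries were tested on log2(FPKM + 1) with limma 3.58.1 in R 4.3.3, fitting a mean for each group over the 18 libraries with a variance trend. Tests were two-sided, called at a Benjamini-Hochberg adjusted p under 0.05, and the code was tested on simulated data. The members, gene lists, contrasts and alternatives were chosen with earlier results of these data known. The text names the members, fixed markers, at most 4 called genes per list and comparison, and the 5 genes most correlated with each member; counts of 5 or fewer were named in full, and examples were taken from those. A few genes under this rule are not reported here. Sequences come from GENCODE M21 transcripts, cut into 50-base windows with Python 3.11.15.

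Libraries of equal replicate number correlated above 0.1 for all 3 numbers, after group means were removed, in 6 of the 9 comparisons, which were taken as paired. The reported fit has no term for this pairing, which enters only the alternative with a block on the replicate number. The labels do not say what the numbers share. Alternatives were a pseudocount of 0.1, no filter, no variance trend, only the compared groups, quantile normalization, a block on the replicate number, the gp49 pair added together, and leaving out libraries singly or in sets. The gene lists and the genes Pdcd1 and Fcrl1 were refitted without CD28-/- Tconv replicate 3 after the data were seen.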

Additional observations from a re-analysis of the deposited data

How the results depend on the processing

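Of the tested population differences, the alternatives left 241 values on the same side of the threshold with the same sign, 12 lost the call, 4 gained it and 1 changed sign. Of the described CD28 differences, 117 values moved by less than the replicate spread, 12 moved by more, and none changed sign. With a pseudocount of 0.1, Cd22 in wild type Nrp1+ against Nrp1-negative Treg was 0.94 (adjusted p = 0.0738), the same in CD28-/- cells 1.07 (0.0409), and Gp49a in CD28-/- cells -1.18 (0.0776). The CD28 differences became -1.8, -1.93 and -2.98 for Cd22 and -2.33, -1.5 and -2.13 for Gp49a in Nrp1+ Treg, Nrp1-negative Treg and Tconv, and -1.9 for Lilrb4 in Tconv, as the smaller pseudocount widens differences of low values. With only the compared groups, which leaves fewer residual degrees of freedom, Cd22 was 0.61 (0.194) between the wild type Treg subsets and -0.93 (0.0767) in Nrp1-negative Treg against Tconv, and Gp49a -0.74 (0.0757) between the CD28-/- Treg subsets. Quantile normalization gave Cd22 0.36 (0.216) between the wild type Treg subsets, -0.5 (0.0346) in wild type Nrp1+ Treg against Tconv, -0.13 (0.664) in CD28-/- Nrp1+ Treg against Tconv, where the sign turned, and -1.46 for CD28 in Tconv, and Gp49a 0.53 (0.15) in CD28-/- Nrp1+ Treg against Tconv. The cause was not tested. With no filter, Cd22 in wild type Nrp1+ Treg against Tconv was -0.32 (0.0462). Leaving out together CD28-/- Tconv replicate 3 and replicate 1 of both wild type Tconv and wild type Nrp1-negative Treg gave Cd22 0.36 (0.0397) between the CD28-/- Treg subsets and Lilrb4 -0.9 for CD28 in Tconv. Leaving out replicate 3 of both CD28-/- Nrp1+ Treg and CD28-/- Tconv gave Gp49a -0.61 (0.201) between the CD28-/- Treg subsets and Lilrb4 -0.94 for CD28 in Tconv, and adding the pair together gave -0.93 there. Leaving out single libraries moved Gp49a between the CD28-/- Treg subsets from -0.93 to -0.61 (adjusted p from 0.00962 to 0.161) and Lilrb4 for CD28 in Tconv from -0.94 to -0.4. It ended no other call on the 3 genes. The replicate block kept all 18 tested differences of the 3 genes on their side of the threshold and all 9 described ones within the replicate spread. It raised the genes called from 605 to 1224, from 500 to 801 and from 718 to 1150 for the wild type Treg subsets, the CD28-/- Treg subsets and CD28-/- Nrp1-negative Treg against Tconv, and from 97 to 154 for CD28 in Tconv, all taken as paired. Where numbers were not taken as paired it gave 1129 in place of 551 for wild type Nrp1-negative Treg against Tconv, 47 in place of 25 for CD28 in Nrp1+ Treg and 41 in place of 25 in Nrp1-negative Treg. Over all alternatives the genes called ran from 220 to 1224 and from 322 to 1853 for the wild type and CD28-/- Treg subsets, from 1140 to 3098 and from 1125 to 2815 (1545 and 1484 as reported) for Nrp1+ Treg against Tconv, from 214 to 1259 and from 391 to 2082 for Nrp1-negative Treg against Tconv, and for CD28 from 3 to 130, from 6 to 120 and from 3 to 311. The backgrounds given beside the 3 genes therefore move with the setting. The unknown depth limits every value under 1 FPKM.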

Other observations

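Some transcripts best known from B cells were present in these sorted T cell libraries, and their source was not tested. In wild type, the means of Cd79b, Cd72 and Fcrl1 were highest in Nrp1+ Treg, whereas that of Cd22 was highest in Tconv. Cd79b, which encodes a chain of the B cell antigen receptor, was 9.9, 9.89 and 9.85 FPKM in wild type Nrp1+ Treg and 0.791, 0.641 and 0.446 FPKM in wild type Tconv (2.75 ± 0.24 log2 by limma, adjusted p = 1.75e-06). Cd79b reached 1 FPKM in 0 of 3 wild type and 1 of 3 CD28-/- Tconv libraries, fewer than the 3 that the filter asks. It therefore entered the tests only through the Treg groups, where it is high. Its call against Tconv is not independent of that filter. In CD28-/- Nrp1+ Treg Cd79b was 4.79, 4.79 and 4.29 FPKM, below all wild type libraries of that subset. The limma difference of -0.95 ± 0.24 did not pass (adjusted p = 0.218). Cd72, an inhibitory receptor of B cells, was 14.9 to 15.7 FPKM in wild type and 8.44 to 9.61 FPKM in CD28-/- Nrp1+ Treg, also without overlap and without passing (-0.68 ± 0.21, adjusted p = 0.474). Limma called 0.204% of all tested genes in that comparison. Fcrl1, an Fc receptor-like gene of B cells, was 5.74 to 6.38 FPKM in CD28-/- Nrp1+ Treg and 0.506 to 1.69 in CD28-/- Tconv (1.94 ± 0.22, adjusted p = 1.84e-05), and 2.2 (adjusted p = 1.72e-06) without CD28-/- Tconv replicate 3.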
